A study of Mus musculus with 12 samples.

Results

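The genes described here are 10 genes of the KEAP1-NRF2 pathway and of the redox and NADPH enzymes that it is known to drive. They are the sensor gene Keap1, the transcription factor gene Nfe2l2 (which encodes NRF2), the redox genes Srxn1, Txnrd1, Prdx1, Nqo1 and Osgin1, and the NADPH-producing enzyme genes G6pdx, Pgd and Me1. They were picked by symbol from the 55401 genes of the count table, and all 10 were among the 17585 genes with enough counts to be tested. RNA sequencing was done on whole liver of male mice aged 7 to 10 weeks, in 12 libraries that form 4 groups of 3. Control mice, FBXL5F/F, had Fbxl5 alleles with loxP sites on either side and no Cre. FBXL5ΔDC mice, Cd11c-Cre/Fbxl5F/F, carried the same floxed alleles together with Cre recombinase under the promoter of Cd11c (Itgax), a promoter used mainly in dendritic cells. The FBXL5 protein senses iron and, as part of a ubiquitin ligase, has the iron regulatory protein IRP2 degraded. Livers of each genotype came from mice without treatment (0 h) or 6 h after an intraperitoneal injection of acetaminophen, a painkiller that injures the liver in overdose. The dose was 300 or 500 mg/kg, without a statement of which applied to these livers. Mice were fasted for 16 h before the injection and fed after it, and the labels do not tell if the 0 h mice had been fasted too. They number the replicates and are silent on litters or cages, so the p-values measure only the spread between these samples. No group was injected without acetaminophen. Against 0 h, the drug therefore cannot be told apart from the injection, the feeding after it or any fast that 0 h mice lacked.

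KEAP1 is the substrate adaptor of a CUL3 ubiquitin ligase and holds NRF2 at a low level by marking it for degradation. Electrophiles and oxidants, among them the quinone imine that liver P450 enzymes make from acetaminophen, modify cysteines of KEAP1, and NRF2 then accumulates and binds antioxidant response elements together with a small MAF protein. Its target genes restore thioredoxin and peroxiredoxin, detoxify quinones and feed the pentose phosphate pathway, which supplies the NADPH that these reductases use.

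The antioxidant response element has the core TGACNNNGC, and the related AP-1 element is TGACTCA. A single site can match both. Both were searched on both strands in the 250 bases before each start site, in RefSeq promoter windows of build GRCm38.p6. All 10 genes had at least 1 window, 14 in all. TGACNNNGC was found in 4 of the 14 windows, those of Nfe2l2, Prdx1, G6pdx and 1 of the 3 windows of Txnrd1, against 10.2% of all 32851 windows. TGACTCA was found in 3 of the 14, those of Srxn1, Prdx1 and Osgin1, against 4.46% of all windows. Neither string was found before the start of Pgd, Nqo1, Me1 or Keap1, which says only that these letters are not in these 250 bases. The whole windows also hold 50 bases after the start. In them TGACNNNGC was found in 7 of the 14, against 12.4% of all windows, and TGACTCA in 4 of the 14, against 5.2%. The windows shown are those of redox genes with a match, and were picked for the match. The window of Nqo1, the other redox gene, and the other windows of Txnrd1 hold none in the 250 bases before the start. Those shown lie at chr2:152105274-152105523 (Srxn1), chr4:116685349-116685598 (Prdx1), chr10:82858956-82859205 (Txnrd1) and chr8:119436897-119437146 (Osgin1). Each runs 5′ to 3′ on the plus strand, the strand of the gene, and ends at the base before the RefSeq start site. Capitals mark matches of either string, and a match on the minus strand appears as its reverse complement.
Srxn1: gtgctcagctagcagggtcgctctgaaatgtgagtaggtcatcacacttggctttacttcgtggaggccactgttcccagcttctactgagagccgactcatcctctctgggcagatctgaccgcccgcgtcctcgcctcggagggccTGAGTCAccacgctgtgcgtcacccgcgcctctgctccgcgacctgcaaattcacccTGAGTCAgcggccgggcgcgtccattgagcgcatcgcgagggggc
Prdx1: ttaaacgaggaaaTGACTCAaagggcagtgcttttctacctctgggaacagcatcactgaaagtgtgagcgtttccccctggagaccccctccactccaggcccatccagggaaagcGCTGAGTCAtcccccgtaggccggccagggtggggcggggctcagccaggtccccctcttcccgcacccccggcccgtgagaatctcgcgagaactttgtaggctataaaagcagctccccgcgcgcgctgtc
Txnrd1: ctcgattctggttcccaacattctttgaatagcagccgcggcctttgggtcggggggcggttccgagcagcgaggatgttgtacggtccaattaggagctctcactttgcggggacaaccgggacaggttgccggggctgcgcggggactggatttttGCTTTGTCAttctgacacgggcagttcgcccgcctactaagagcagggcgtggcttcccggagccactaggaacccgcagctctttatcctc
Osgin1: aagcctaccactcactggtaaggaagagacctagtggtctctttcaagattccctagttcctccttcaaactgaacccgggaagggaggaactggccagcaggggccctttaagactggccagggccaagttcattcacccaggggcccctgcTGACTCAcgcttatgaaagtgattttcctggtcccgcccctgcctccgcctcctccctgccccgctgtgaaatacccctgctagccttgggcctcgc
Srxn1 held TGACTCA at 102 and at 45 bases before its start, both on the minus strand. Prdx1 held TGACTCA at 237 bases before its start on the plus strand and at 131 bases on the minus strand. The second of these overlaps a match of TGACNNNGC that begins 133 bases before the start. The window of Txnrd1 held TGACNNNGC at 92 bases, and that of Osgin1 held TGACTCA at 97 bases before the start. A match describes the sequence and does not show that a factor was bound.

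Total counts ran from 67.2 to 72.5 M per library. Fbxl5 gave 17.6 to 21.96 CPM (counts over a TMM-scaled library size) in untreated control livers, 10.3 to 21.4 CPM in untreated FBXL5ΔDC livers, and 13.3 to 19.2 and 12.5 to 21.8 CPM at 6 h, without a called difference in any comparison. Itgax was at 0 to 0.584 CPM throughout, so whole-liver totals do not check the deletion. The 6 hepatocyte markers, Alb among them, summed to between 70450 and 139000 CPM per library, so the labelled tissue's markers were abundant. Control replicate 3 at 6 h stood apart from its group. On the first principal component of all tested genes (39.8% of the variance) it lay at 86.8, against −9.46 and −8.18 for replicates 1 and 2. The treated FBXL5ΔDC livers lay between 97.7 and 107.4, and untreated livers between −67.0 and −57.5. Values of the 10 genes that use the treated control group are therefore given with and without that library. So are the counts of the lists of related genes, but not those of cell type markers, which use all libraries. This check was chosen after the position of that library was seen. Other genes named from the lists are given with all libraries. In RNA from whole tissue, fewer cells of a type and less RNA per cell cannot be told apart.

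**Figure D1:**
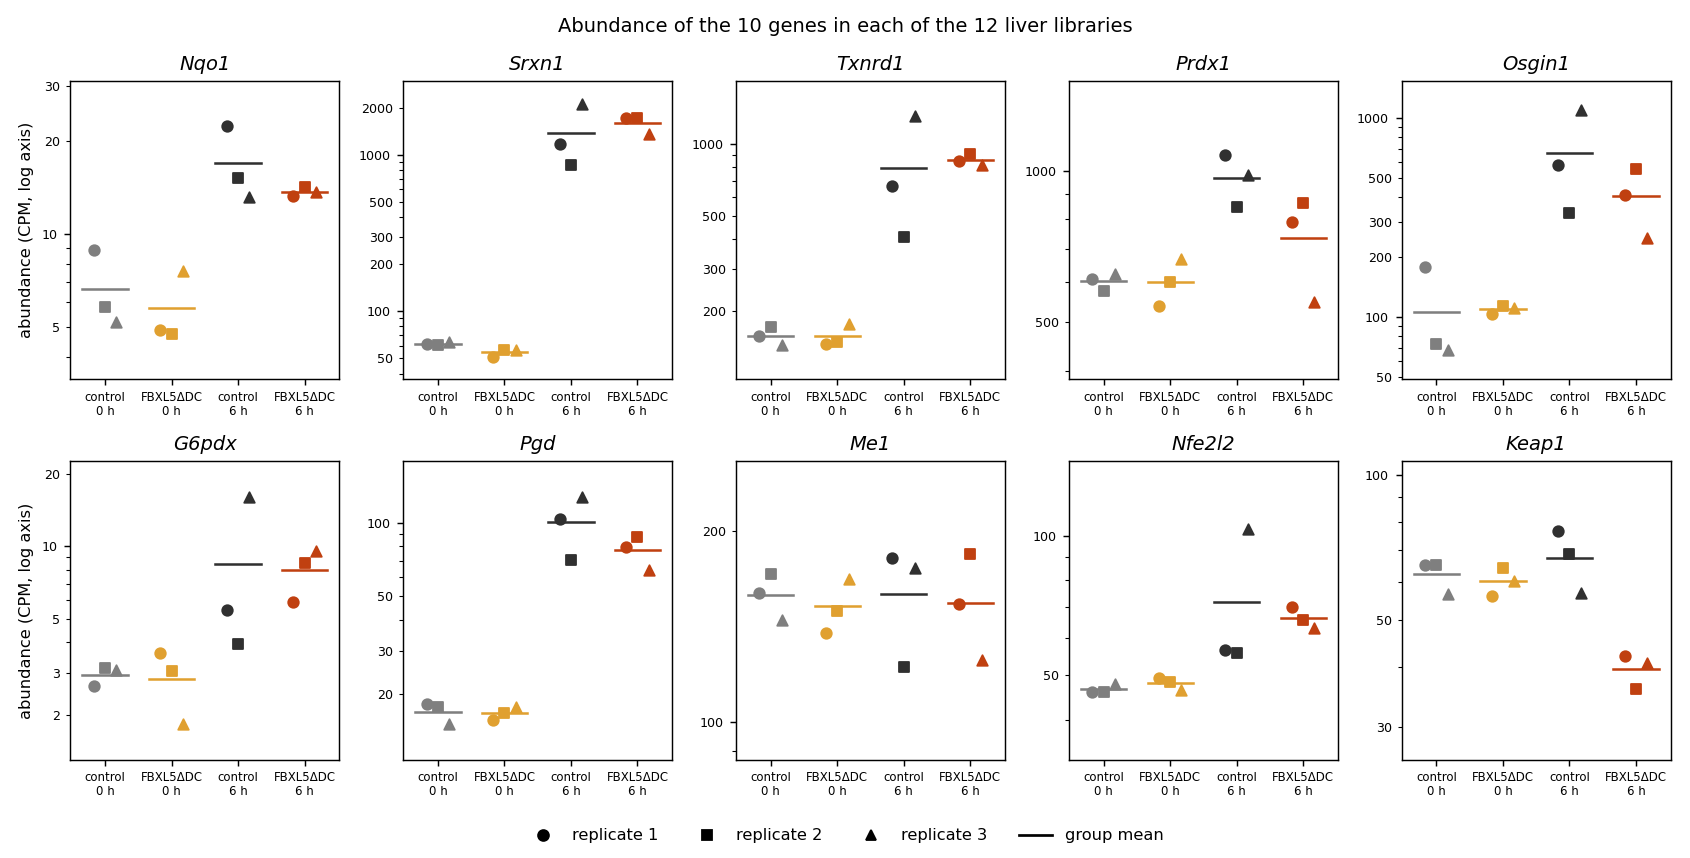
Abundance of each gene (CPM, log axis) in the 12 liver libraries by group, with a marker for each replicate number and a line at the group mean. Srxn1 rises from between 51.3 and 63.7 CPM at 0 h to between 855 and 2112 CPM at 6 h, Me1 stays in 1 range, and Keap1 is lowest in the treated FBXL5ΔDC livers.

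To set the genes side by side, abundance was divided by the length of all annotated exons of a gene, merged. This length was 6.45 kb for Pgd and 1.55 kb for Nqo1. The transcripts made in these livers may be shorter, so the order of the genes depends on the annotation. In untreated control livers the abundance on this scale spanned from G6pdx at 0.957 ± 0.0874 CPM per kb (mean ± SD, n = 3) to Prdx1 at 198 ± 7.94 CPM per kb. Prdx1 is an abundant cytosolic peroxidase. Below it came Me1 at 41.2, Osgin1 at 39.7, Txnrd1 at 22.2, Srxn1 at 22.01, Keap1 at 13.3, Nfe2l2 at 12.3, Nqo1 at 4.26 and Pgd at 2.63 CPM per kb. The ranges of Me1 and Osgin1, of Txnrd1 and Srxn1, and of Keap1 and Nfe2l2 overlapped, and the other neighbours in this order did not. At 6 h the order had changed in both genotypes. Srxn1 was first, at 489 ± 232 CPM per kb in control and 564 ± 74.6 CPM per kb in FBXL5ΔDC livers, followed by Prdx1, Osgin1 and Txnrd1. In treated control livers the ranges of Srxn1, Prdx1, Osgin1 and Txnrd1 overlapped from each to the next, whereas in treated FBXL5ΔDC livers the range of Srxn1 lay above that of Prdx1. Keap1, at rank 6 of the 10 at 0 h, was at rank 8 in treated control livers with 14.3 ± 2.08 CPM per kb and at rank 9 in treated FBXL5ΔDC livers with 8.43 ± 0.702 CPM per kb. In treated control livers the ranges of Nfe2l2, Pgd, Keap1 and Nqo1 overlapped from each to the next. There the level of Keap1 was not below its 13.3 CPM per kb at 0 h. In treated FBXL5ΔDC livers the ranges of Nqo1 and Keap1 overlapped.

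**Figure D2:**
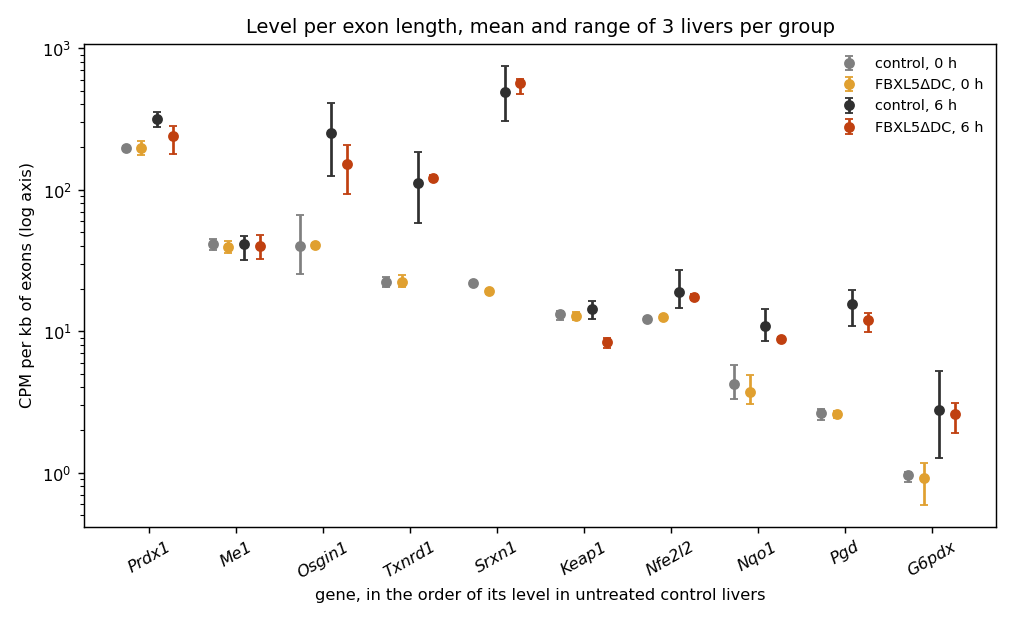
Level of each gene per kilobase of merged annotated exons (CPM per kb, log axis), as the mean (point) and the range (bar) of 3 livers in each of the 4 groups, ordered by the level in untreated control livers. Prdx1 leads at 0 h with 198 CPM per kb, and Srxn1 leads at 6 h with 489 and 564 CPM per kb.

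From 0 h to 6 h after acetaminophen, 7 of the 10 genes rose in control livers and none fell. Calls were made at an adjusted p below 0.05 in edgeR's quasi-likelihood test over all tested genes. Over all genes tested, 6.36% were called higher and 4.2% lower in the same comparison (1118 and 739 genes, which upper quartile scaling turned into 911 and 938). The median log2 change of the 10 genes was 1.44, against 0.03 over all genes. In FBXL5ΔDC livers 6 of the 10 genes rose and 1, Keap1, fell, where 15% of all genes were called higher and 15.1% lower. The median log2 change of the 10 genes there was 1.38, against 0.02 over all genes. Without control replicate 3 at 6 h, 6 of the 10 genes rose and 0 fell in control livers (all genes 5.23% higher and 3.86% lower). The same refit, in which the spread was estimated from 11 libraries, called 7 genes higher and 1 lower in FBXL5ΔDC livers (all genes 16.9% higher and 17.3% lower).

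Among the redox genes, Srxn1 (sulfiredoxin, which reduces overoxidised peroxiredoxins; GRCm38 chromosome 2 from 152105516 to 152111376, plus strand) changed the most. Its abundance was 62.0, 60.5 and 63.7 CPM in untreated control livers (replicates 1 to 3, the order used throughout) and 51.3, 56.3 and 56.4 CPM in untreated FBXL5ΔDC livers. After acetaminophen it was 1173, 855 and 2112 CPM in control livers and 1708, 1716 and 1348 CPM in FBXL5ΔDC livers. Every treated liver lay far above every untreated one, and control replicate 3 was the highest of all 12. The log2 change was 4.47 (SE 0.28, edgeR adjusted p = 1.91e-05) in control livers, a 22.2-fold rise, and 4.86 (SE 0.29, edgeR adjusted p = 4.37e-06) in FBXL5ΔDC livers. By p it ranked 1 of all tested genes in control livers and 2 in FBXL5ΔDC livers. With control replicate 3 left out, the change in control livers was 4.03 (edgeR adjusted p = 1.5e-08).

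Txnrd1 encodes the cytosolic thioredoxin reductase, a selenoprotein that uses NADPH to keep thioredoxin reduced (chromosome 10 from 82833951 to 82897712, plus strand). Untreated livers held it at 156, 170.1 and 144 CPM in controls and at 145, 148 and 177 CPM in FBXL5ΔDC mice. Treated livers held it at 667, 409 and 1309 CPM in controls and at 846, 903 and 817 CPM in FBXL5ΔDC mice. The treated and untreated ranges were separate in both genotypes, and the treated control livers were far more scattered (SD 463 CPM) than the treated FBXL5ΔDC livers (SD 43.8 CPM). On the log2 scale Txnrd1 rose by 2.34 (SE 0.32, edgeR adjusted p = 0.00121) in control and 2.45 (SE 0.32, edgeR adjusted p = 0.000329) in FBXL5ΔDC livers. The rise in control livers without replicate 3 was 1.78 on the log2 scale (edgeR adjusted p = 4.52e-05).

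Prdx1, the peroxiredoxin that thioredoxin recycles and sulfiredoxin repairs, lies on chromosome 4 from 116685544 to 116700822 (plus strand). It was at 608, 576 and 623 CPM in untreated controls and 538, 600.2 and 667 CPM in untreated FBXL5ΔDC mice. The treated livers held 1076, 848 and 979 CPM in controls and 790.1, 864 and 547 CPM in FBXL5ΔDC mice. All treated control livers lay above all untreated ones, whereas treated FBXL5ΔDC replicate 3 lay within the untreated range. Prdx1 rose in control livers by 0.68 on the log2 scale (SE 0.16, edgeR adjusted p = 0.0206). The change in FBXL5ΔDC livers was 0.29 (SE 0.16, edgeR adjusted p = 0.216), and the difference between the responses, −0.40 (SE 0.23), did not pass the test either (edgeR adjusted p = 0.464). Without replicate 3 at 6 h the change in control livers was again 0.68 (edgeR adjusted p = 0.0295). The call there was lost when any 1 untreated control library or treated control replicate 1 was left out, or when only the 2 control groups were fitted, with edgeR adjusted p up to 0.0886.

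Nqo1, the quinone reductase often used as a readout of NRF2, was a low-abundance transcript in these livers (chromosome 8 from 107388225 to 107403206, minus strand). Its values were 8.89, 5.80 and 5.17 CPM in untreated controls and 4.90, 4.73 and 7.58 CPM in untreated FBXL5ΔDC mice. At 6 h they were 22.3, 15.2 and 13.2 CPM in controls and 13.2, 14.2 and 13.7 CPM in FBXL5ΔDC mice. The treated livers lay above the untreated ones in both genotypes, and here control replicate 3 was the lowest of its group. Nqo1 rose by 1.35 (SE 0.26, edgeR adjusted p = 0.00748) in control and by 1.26 (SE 0.26, edgeR adjusted p = 0.00367) in FBXL5ΔDC livers on the log2 scale. With replicate 3 left out the rise in control livers was 1.50 (edgeR adjusted p = 0.0024). With only the 2 control groups in the fit the call there was lost (edgeR adjusted p = 0.0594).

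Osgin1 encodes an oxidative stress-induced growth inhibitor (chromosome 8 from 119434124 to 119446256, plus strand). It was at 177, 72.9 and 67.9 CPM in untreated controls and 104, 113 and 111 CPM in untreated FBXL5ΔDC mice. By 6 h it had reached 579, 332 and 1096 CPM in controls and 412, 552 and 249.9 CPM in FBXL5ΔDC mice. Untreated control replicate 1 stood above the other untreated livers, but no untreated liver reached a treated one. The log2 change was 2.66 (SE 0.50, edgeR adjusted p = 0.00943) in control and 1.89 (SE 0.49, edgeR adjusted p = 0.0143) in FBXL5ΔDC livers. The call in FBXL5ΔDC livers was lost without untreated replicate 1, untreated replicate 3 or treated replicate 2 of that genotype, with adjusted p up to 0.0534. In control livers the change fell to 2.10 (edgeR adjusted p = 0.029) without replicate 3, and the call was lost when only the 2 control groups were fitted (edgeR adjusted p = 0.0554).

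**Figure D3:**
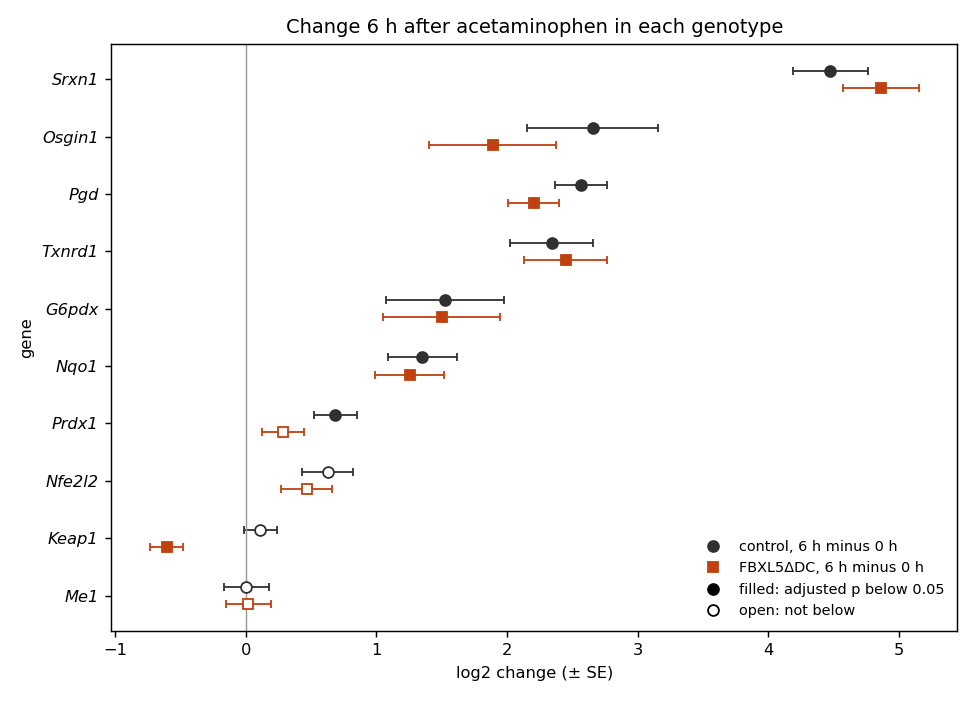
Log2 change from 0 h to 6 h after acetaminophen for each gene in control (circles) and FBXL5ΔDC livers (squares), with bars for ± SE and filled markers where the edgeR adjusted p was below 0.05. Srxn1 leads at 4.47 and 4.86, Me1 lies at 0.01 and 0.02, and Keap1 lies at 0.11 in control and −0.61 in FBXL5ΔDC livers.

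The NADPH-producing enzymes did not move alike. Pgd, the 6-phosphogluconate dehydrogenase of the pentose phosphate pathway (chromosome 4 from 149149991 to 149166771, minus strand), was at 18.1, 17.6 and 15.1 CPM in untreated controls and 15.7, 16.7 and 17.6 CPM in untreated FBXL5ΔDC mice. At 6 h Pgd was at 103, 70.5 and 127 CPM in controls and 79.8, 87.1 and 64.0 CPM in FBXL5ΔDC mice. The lowest treated liver lay several-fold above the highest untreated one. Pgd had a log2 change of 2.57 (SE 0.20, edgeR adjusted p = 4.2e-05) in control livers, a 5.92-fold rise, and 2.21 (SE 0.20, edgeR adjusted p = 2.71e-05) in FBXL5ΔDC livers, a 4.61-fold rise. The change in control livers without replicate 3 was 2.36 (edgeR adjusted p = 5.59e-06). By p, Pgd ranked 4 of all tested genes in control livers and 35 in FBXL5ΔDC livers.

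G6pdx encodes glucose-6-phosphate dehydrogenase, the first and rate-limiting enzyme of that pathway (chromosome X from 74409483 to 74429194, minus strand). It was scarce, at 2.64, 3.14 and 3.06 CPM in untreated controls and 3.60, 3.04 and 1.83 CPM in untreated FBXL5ΔDC mice. Treated livers held 5.46, 3.94 and 16.1 CPM in controls and 5.87, 8.50 and 9.60 CPM in FBXL5ΔDC mice. Treated and untreated ranges were separate, and control replicate 3 was the highest library. The log2 change was 1.52 (SE 0.45, edgeR adjusted p = 0.0485) in control and 1.50 (SE 0.45, edgeR adjusted p = 0.0239) in FBXL5ΔDC livers. In control livers the call rests on replicate 3, since without it the log2 change was 0.67 (edgeR adjusted p = 0.21), and the call was lost under 16 of the 20 alternatives tried. In FBXL5ΔDC livers the call was lost without untreated replicate 2 or 3, or treated replicate 2 or 3, with adjusted p up to 0.0968. G6pdx shares 418 exon bases with Ikbkg on the other strand, which was at 90.4 to 126.9 CPM as group means, and the strand setting of the counting is not known, so reads of both genes could be mixed there. Ikbkg changed by 0.43 on the log2 scale in control livers (SE 0.14, edgeR adjusted p = 0.0707), and its part in the G6pdx value was not tested. The related gene G6pd2 had 0 counts in all libraries.

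Me1, the cytosolic malic enzyme, makes NADPH from malate and is also a gene of lipid synthesis (chromosome 9 from 86581371 to 86695953, minus strand). It was at 159.7, 171 and 145 CPM in untreated controls and 138, 149.6 and 168 CPM in untreated FBXL5ΔDC mice. After acetaminophen Me1 was at 181, 122 and 175 CPM in controls and 153, 184 and 125 CPM in FBXL5ΔDC mice. All 4 groups overlapped. The log2 change was 0.01 (95% interval −0.36 to 0.38, edgeR adjusted p = 0.991) in control and 0.02 (95% interval −0.35 to 0.39, edgeR adjusted p = 0.95) in FBXL5ΔDC livers. These intervals lie below the 95% intervals of Srxn1, Txnrd1, Pgd, Osgin1, Nqo1 and G6pdx in the same genotype. Leaving out control replicate 3 put the change in control livers at −0.07 (edgeR adjusted p = 0.91).

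Neither regulator gene was called changed in control livers. Nfe2l2 (chromosome 2 from 75675513 to 75704641, minus strand) was at 45.9, 45.9 and 47.7 CPM in untreated controls and 49.3, 48.2 and 46.3 CPM in untreated FBXL5ΔDC mice, with the lowest coefficients of variation of the 10 genes in those groups (2.29% and 3.12%). Treated livers held 56.5, 55.7 and 103 CPM in controls and 70.0, 65.8 and 63.0 CPM in FBXL5ΔDC mice. Each treated liver exceeded each untreated one, yet neither change was called. Its log2 change was 0.63 (SE 0.19, edgeR adjusted p = 0.0571) in control livers and 0.27 (edgeR adjusted p = 0.103) without replicate 3. In FBXL5ΔDC livers it was 0.47 (SE 0.19, edgeR adjusted p = 0.0884). In the fit without control replicate 3, whose estimate of the spread was smaller, the change in FBXL5ΔDC livers was again 0.47 and was called (edgeR adjusted p = 0.000823).

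Keap1 (chromosome 9 from 21229730 to 21239361, minus strand) was the only gene of the 10 called between genotypes at 6 h with all 12 libraries. It was at 65.0, 65.2 and 56.6 CPM in untreated controls and 56.2, 64.1 and 60.3 CPM in untreated FBXL5ΔDC mice. At 6 h it was at 76.4, 68.5 and 57.0 CPM in control livers and at 42.1, 35.8 and 40.8 CPM in FBXL5ΔDC livers. The 3 treated FBXL5ΔDC livers were below the other 9 livers, and control replicate 3 was the lowest of the treated controls. Keap1 fell in FBXL5ΔDC livers after acetaminophen by 0.61 on the log2 scale (SE 0.13, edgeR adjusted p = 0.00395), a 1.52-fold decrease that passed under all 20 alternatives tried. The change in control livers was 0.11 (SE 0.13, 95% interval −0.17 to 0.39, edgeR adjusted p = 0.669), and 0.22 without replicate 3 (edgeR adjusted p = 0.302). Keap1 shares 510 exon bases with the antisense gene Gm16754. That gene was at 0.322 to 1.02 CPM as group means and rose by 1.66 on the log2 scale in FBXL5ΔDC livers (SE 0.52, edgeR adjusted p = 0.0303), opposite to Keap1.

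Between genotypes without treatment, none of the 10 genes differed. The log2 differences, FBXL5ΔDC minus control, ran from −0.21 for Nqo1 to 0.04 for Nfe2l2, all with an edgeR adjusted p of 1. Over all genes, 0% were called higher and 0% lower by edgeR, 465 genes had an unadjusted p below 0.05, and DESeq2 called 9 genes higher and 7 lower, none of them among the 10. Srxn1 was lower in each untreated FBXL5ΔDC liver than in each untreated control liver, with means of 54.7 ± 2.88 and 62.1 ± 1.59 CPM and a log2 difference of −0.18 (SE 0.25) that did not pass. With 3 livers a group and a spread estimated over all 4 groups, a log2 difference in Srxn1 as large as −0.72 lay within the 95% interval. The SD of its log2 CPM was 0.0370 in untreated control and 0.0772 in untreated FBXL5ΔDC livers. At 6 h it was 0.662 in control and 0.199 in FBXL5ΔDC livers.

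At 6 h, Keap1 was lower in FBXL5ΔDC than in control livers, with 39.6 ± 3.29 against 67.3 ± 9.75 CPM. The log2 difference was −0.77 (SE 0.13, edgeR adjusted p = 0.00862), a 1.70-fold decrease. The call was lost when only the 2 treated groups were fitted (edgeR adjusted p = 0.128) and held under the other 19 alternatives. It was the only call among the 10 genes, where 1.35% of all genes were called higher and 4.51% lower (238 and 793 genes, which library totals without TMM turned into 157 and 1774). The other 9 genes had log2 differences from −0.72 (SE 0.47) for Osgin1 to 0.20 (SE 0.25) for Srxn1, with edgeR adjusted p from 0.166 to 0.937. Prdx1 came nearest, at −0.40 (SE 0.16, edgeR adjusted p = 0.166), followed by Pgd at −0.38 (SE 0.19, edgeR adjusted p = 0.247). For Txnrd1 the 95% interval of the difference, −0.56 to 0.77, leaves room for a difference in either direction. The genotype comparison at 6 h uses the same treated livers as the comparisons with 0 h, so these are not independent results.

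Leaving out control replicate 3 at 6 h moved several of these values. Srxn1 was then higher in FBXL5ΔDC livers by 0.65 on the log2 scale (SE 0.15, edgeR adjusted p = 0.00756) and Txnrd1 by 0.67 (SE 0.18, edgeR adjusted p = 0.0149). Keap1 was lower in FBXL5ΔDC livers, at −0.87 (SE 0.11, edgeR adjusted p = 0.000112). In that fit 10.1% of all genes were called higher and 12.9% lower, beside 2 higher and 1 lower of the 10. Osgin1, at −0.72 with all libraries, was at −0.17, and Pgd moved from −0.38 to −0.18. G6pdx moved from −0.09 to 0.76 (edgeR adjusted p = 0.0976). The remaining values were −0.45 for Nqo1, −0.39 for Prdx1, 0.02 for Me1 and 0.24 for Nfe2l2, none of them called. That fit has 2 treated control livers.

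**Figure D4:**
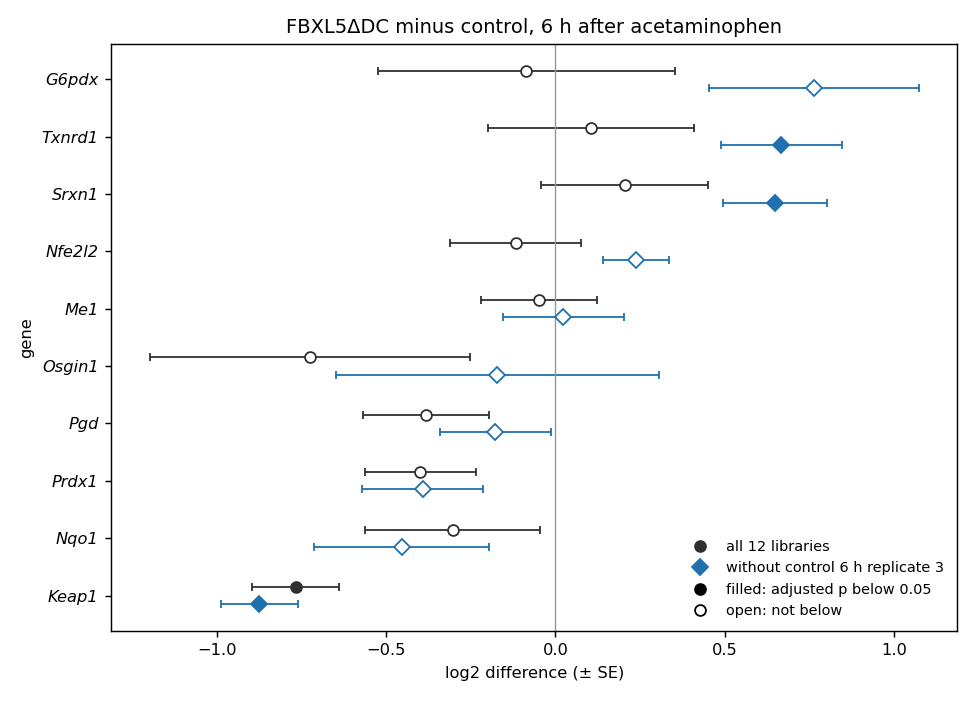
Log2 difference between FBXL5ΔDC and control livers at 6 h for each gene, with all 12 libraries (circles) and without control replicate 3 at 6 h (diamonds), bars for ± SE, filled where the edgeR adjusted p was below 0.05. Keap1 is lower both ways, at −0.77 and −0.87, while Srxn1 and Txnrd1 are called at 0.65 and 0.67 without that library only.

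The difference between the responses of the genotypes was tested as an interaction. None of the 10 genes passed, where edgeR called 0.0341% of all genes higher and 0.256% lower. Keap1 came nearest, at −0.72 (SE 0.18, unadjusted p = 0.00172, edgeR adjusted p = 0.106), and it was the only one of the 10 genes that DESeq2 called (adjusted p = 0.0189). The other 9 values ran from −0.77 for Osgin1 (SE 0.67) to 0.39 for Srxn1 (SE 0.35). With control replicate 3 left out, Srxn1 passed at 0.83 (SE 0.21, edgeR adjusted p = 0.0156) and Keap1 at −0.83 (SE 0.15, edgeR adjusted p = 0.0031), where 5.97% of all genes were called higher and 7.74% lower. The other 8 values then ran from −0.39 for Prdx1 to 0.82 for G6pdx.

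Other measures were read for the treated FBXL5ΔDC group too, some with ranges that overlapped those of treated controls. The 6 hepatocyte markers summed to between 103300 and 139000 CPM there, 70450 to 116200 CPM in treated control livers and 79900 to 94660 CPM at 0 h. Alb made up most of these sums, with means of 98070 ± 16000 CPM there and 65220 ± 23660 CPM in treated controls. Between genotypes at 6 h, with all libraries, 0 of the 6 markers were called higher and 1 lower, where 1.35% of all genes were higher and 4.51% lower. Among them, Cyp2e1, a P450 enzyme that activates acetaminophen, was at 3511 ± 1007 CPM in treated controls and 843 ± 292 CPM in treated FBXL5ΔDC mice. Its log2 difference at 6 h was −2.06 (SE 0.25, edgeR adjusted p = 0.00365), and the interaction was called at −2.20 (SE 0.35, edgeR adjusted p = 0.0327). Alb rose after acetaminophen in FBXL5ΔDC livers by 0.70 on the log2 scale (SE 0.22, edgeR adjusted p = 0.0284). The 4 cholangiocyte markers summed to between 45.0 and 212 CPM there, 18.0 to 46.8 CPM in treated control livers and 4.82 to 8.49 CPM at 0 h. The 4 sinusoidal endothelium markers summed to between 157 and 206 CPM there and to between 82.9 and 131 CPM in the other groups, with 1 of 4, Stab2, called between genotypes at 6 h. The 6 neutrophil markers summed to at most 9.78 CPM in any library, with Ly6g at 0 in the other 3 groups, and the 6 Kupffer cell and macrophage markers to between 109 and 261 CPM. The 4 monocyte markers summed to between 18.4 and 48.5 CPM, the 6 dendritic cell markers to between 4.41 and 7.40 CPM, and the 4 red blood cell precursor markers to between 209 and 438 CPM. Mitochondrially encoded genes held 8.94% to 9.43% of counts in treated FBXL5ΔDC livers and 5.32% to 7.05% in the others. The part of these measures in the Keap1 difference and in the rises after acetaminophen was not tested.

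A list of 16 genes that control the KEAP1-NRF2 pathway was read from the same tests. Up to 3 called genes per list and comparison are named, so a gene named for 1 genotype may also change in the other. In control livers 6 rose (37.5%, against 6.36% of all genes) and 1 fell (6.25%, against 4.2%), with a median log2 change of 0.28. In FBXL5ΔDC livers 5 rose (31.2%, against 15%) and 2 fell (12.5%, against 15.1%), with a median of 0.10. Sqstm1, the autophagy receptor p62 that binds KEAP1, rose in control livers from a mean of 589 ± 21.9 to 2429 ± 838 CPM (a log2 change of 2.04, SE 0.22, edgeR adjusted p = 0.00025). In FBXL5ΔDC livers Sqstm1 rose from 535 ± 48.0 to 1738 ± 385 CPM, a log2 change of 1.70 (SE 0.22, edgeR adjusted p = 0.000272). Of the small MAF partners, Maff rose by 5.12 in control livers (SE 0.83, edgeR adjusted p = 0.00558) and Mafk by 3.13 in FBXL5ΔDC livers (SE 0.41, edgeR adjusted p = 0.000421). Maff went from 3.49 ± 1.58 to 174 ± 122 CPM in FBXL5ΔDC livers, and Mafk from 12.1 ± 1.99 to 58.0 ± 35.8 CPM in control livers. At least in the fit without control replicate 3, Maff and Mafk were called higher in both genotypes. Nfe2l1, the related factor NRF1, fell in both genotypes, by 0.87 in control (SE 0.14, edgeR adjusted p = 0.00247) and by 1.67 in FBXL5ΔDC livers (SE 0.14, edgeR adjusted p = 2.2e-05). With all libraries Nfe2l1 was also the 1 gene of the list that differed between genotypes at 6 h, with 74.1 ± 13.3 CPM in controls and 41.6 ± 3.37 CPM in FBXL5ΔDC mice (log2 −0.83, SE 0.14, edgeR adjusted p = 0.00775). This is 6.25% of the list called lower, against 4.51% of all genes. Without control replicate 3 the list held 4 rises and 1 fall in control livers, where 5.23% of all genes rose and 3.86% fell. At 6 h it then held 2 genes higher in FBXL5ΔDC livers, Bach1 and Mafk, and 2 lower, Btrc and Nfe2l1, where 10.1% of all genes were higher and 12.9% lower.

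Of 30 further genes known as NRF2 targets, 10 rose (33.3%, against 6.36% of all genes) and 3 fell (10%, against 4.2%) in control livers, with a median log2 change of 0.52. In FBXL5ΔDC livers 12 rose (40%, against 15%) and 5 fell (16.7%, against 15.1%), with a median of 0.21. Gclc, the catalytic subunit of the first enzyme of glutathione synthesis, rose in control livers from a mean of 381 ± 80.3 to 2363 ± 1174 CPM (a log2 change of 2.63, SE 0.29, edgeR adjusted p = 0.000292). It rose in FBXL5ΔDC livers from a mean of 369 ± 45.1 to 2502 ± 177 CPM (a log2 change of 2.76, SE 0.29, edgeR adjusted p = 9.75e-05). Hmox1, which breaks down heme, rose by 5.43 in control (SE 0.63, edgeR adjusted p = 0.000872) and by 6.37 in FBXL5ΔDC livers (SE 0.65, edgeR adjusted p = 0.000162). Cbr3, a carbonyl reductase, rose in control livers from a mean of 0.237 ± 0.0860 to 3.79 ± 0.813 CPM (a log2 change of 3.99, SE 0.39, edgeR adjusted p = 0.00016). In FBXL5ΔDC livers Cbr3 went from 0.391 ± 0.103 to 1.93 ± 0.158 CPM, called at least in the fit without control replicate 3. Gsta1, a glutathione transferase, rose in FBXL5ΔDC livers from a mean of 1.57 ± 1.05 to 149 ± 13.6 CPM (a log2 change of 6.57, SE 0.67, edgeR adjusted p = 0.000158). In control livers Gsta1 went from 4.005 ± 0.739 to 110.8 ± 69.5 CPM, and its rise there was called at least in the fit without replicate 3. At 6 h 0 of the 30 were called higher in FBXL5ΔDC than in control livers and 1 lower, the biliverdin reductase gene Blvrb (80.3 ± 23.1 and 49.2 ± 4.51 CPM, log2 −0.71, edgeR adjusted p = 0.0378). Over all genes 1.35% were higher and 4.51% lower. These counts were 3 and 6 of 30 without control replicate 3, where 10.1% of all genes were higher and 12.9% lower. In control livers that fit again gave 10 rises and 3 falls, where 5.23% of all genes rose and 3.86% fell.

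Of 21 other genes of the thioredoxin and peroxiredoxin system, 1 rose and 1 fell in control livers (4.76% each, against 6.36% and 4.2% of all genes). In FBXL5ΔDC livers 2 rose and 2 fell (9.52% each, against 15% and 15.1%), and the medians were −0.14 and −0.08. Gsr, the NADPH-dependent glutathione reductase, rose by 0.89 in control (SE 0.18, edgeR adjusted p = 0.00886) and by 0.94 in FBXL5ΔDC livers (SE 0.18, edgeR adjusted p = 0.00211). The mitochondrial reductase gene Txnrd2 fell by 0.53 in control livers (SE 0.13, edgeR adjusted p = 0.0225). In FBXL5ΔDC livers Msrb1, a methionine sulfoxide reductase, fell by 0.87 (SE 0.20, edgeR adjusted p = 0.00587) and the sestrin gene Sesn3 by 0.48 (SE 0.16, edgeR adjusted p = 0.0391). With all libraries Sesn2, a sestrin, was the 1 gene that differed between genotypes at 6 h, at 20.7 ± 4.78 CPM in controls and 10.2 ± 2.81 CPM in FBXL5ΔDC mice (log2 −1.03, SE 0.23, edgeR adjusted p = 0.0247). This is 4.76% of the list called lower, against 4.51% of all genes. Without control replicate 3, 1 gene rose and 2 fell in control livers (all genes 5.23% and 3.86%). At 6 h, 2 were then higher and 3 lower in FBXL5ΔDC than in control livers, where 10.1% and 12.9% of all genes were called.

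Among 17 other genes of the pentose phosphate pathway and NADPH supply, 2 rose and 2 fell in control livers (11.8% each, against 6.36% and 4.2% of all genes). In FBXL5ΔDC livers 5 rose (29.4%, against 15%) and 4 fell (23.5%, against 15.1%), and the medians were 0.02 and 0.03. Mthfd2, a mitochondrial folate enzyme, rose by 3.31 in control (SE 0.56, edgeR adjusted p = 0.00364) and by 2.88 in FBXL5ΔDC livers (SE 0.55, edgeR adjusted p = 0.00217), from under 1 CPM. Mthfd1l, of the same mitochondrial pathway, rose in control livers from a mean of 1.68 ± 0.359 to 9.47 ± 4.62 CPM (a log2 change of 2.49, SE 0.37, edgeR adjusted p = 0.00174). In FBXL5ΔDC livers Mthfd1l went from 2.19 ± 0.424 to 5.07 ± 1.46 CPM, called at least in the fit without control replicate 3. Rpia, the ribose-5-phosphate isomerase, rose in FBXL5ΔDC livers from a mean of 1.49 ± 0.377 to 4.33 ± 0.997 CPM (a log2 change of 1.54, SE 0.32, edgeR adjusted p = 0.00342). In control livers Rpia went from 2.05 ± 0.133 to 4.20 ± 1.63 CPM without a call. Nadk2, the mitochondrial NAD kinase, fell by 0.69 in control (SE 0.14, edgeR adjusted p = 0.0101) and by 0.88 in FBXL5ΔDC livers (SE 0.14, edgeR adjusted p = 0.000826). Its cytosolic relative Nadk was lower in FBXL5ΔDC livers at 6 h, at 149 ± 3.26 against 215 ± 35.7 CPM (log2 −0.53, SE 0.14, edgeR adjusted p = 0.0416). Nadk was the only gene of the list called there with all libraries (5.88% lower, against 4.51% of all genes). Without control replicate 3, 1 gene of the list was higher and 2 were lower in that comparison (all genes 10.1% and 12.9%). In control livers 2 then rose and 3 fell (all genes 5.23% and 3.86%).

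Me1 was set beside 14 genes of lipid synthesis, of which 13 were tested, and Txnrd1 beside 16 other selenoprotein genes. Of the lipid synthesis genes, 2 rose (15.4%, against 6.36% of all genes) and 4 fell (30.8%, against 4.2%) in control livers. In FBXL5ΔDC livers 4 rose (30.8%, against 15%) and 3 fell (23.1%, against 15.1%), and the medians were −0.27 and −0.06. Srebf1, the lipogenic transcription factor, rose by 1.12 in control (SE 0.18, edgeR adjusted p = 0.00261) and by 1.02 in FBXL5ΔDC livers (SE 0.18, edgeR adjusted p = 0.00133). Thrsp, a lipogenic factor, rose by 1.13 in control (SE 0.22, edgeR adjusted p = 0.00718) and by 1.27 in FBXL5ΔDC livers (SE 0.22, edgeR adjusted p = 0.00126), while the acetyl-CoA carboxylase gene Acacb changed by −1.36 (SE 0.24, edgeR adjusted p = 0.00506) and −1.73 (SE 0.25, edgeR adjusted p = 0.000451). Gpam, the first acyltransferase of triglyceride synthesis, was higher in FBXL5ΔDC livers at 6 h (log2 0.69, SE 0.17, edgeR adjusted p = 0.0357). It was the only lipid synthesis gene called there with all libraries (7.69% higher, against 1.35% of all genes). Of the selenoprotein genes, 0 rose and 1 fell in control livers (6.25%, against 4.2% of all genes). In FBXL5ΔDC livers 2 rose (12.5%, against 15%) and 4 fell (25%, against 15.1%). Sephs2, which makes the selenium donor, fell from 864 ± 55.7 to 285 ± 37.3 CPM in FBXL5ΔDC livers (log2 −1.60, SE 0.24, edgeR adjusted p = 0.000582), and Selenon rose by 1.45 (SE 0.28, edgeR adjusted p = 0.00235). With all libraries Selenon was also the 1 selenoprotein gene that differed at 6 h, at 1.57 ± 0.0315 CPM in controls and 3.35 ± 0.506 CPM in FBXL5ΔDC mice (log2 1.09, SE 0.28, edgeR adjusted p = 0.0381). This is 6.25% of these genes called higher between genotypes, against 1.35% of all genes. Without control replicate 3, Msrb1, Selenos and Sephs2 were called lower there as well, which gives 1 higher and 3 lower of 16. The lipid synthesis genes then held 2 higher and 1 lower of 14 tested, where 10.1% of all genes were higher and 12.9% lower. In control livers that fit gave 3 rises and 4 falls among the lipid synthesis genes and 0 and 1 among the selenoprotein genes. Over all genes 5.23% rose and 3.86% fell there.

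For 6 of the 10 genes, the tested genes with the most similar pattern were found as those with the smallest root mean square difference in log2 CPM over the 12 libraries, each gene centred on its own mean. Txnrd1 was most like Tubb2a, Tsc22d2 and Gclc, at 0.207, 0.214 and 0.229 log2 units, where its own root mean square deviation was 1.21. Srxn1 was most like Klf6, Ifrd1 and Matn4, at 0.269, 0.367 and 0.375 against its own 2.33. Matn4 was at 0 CPM in untreated livers and only at means of 0.453 and 1.01 CPM in treated control and FBXL5ΔDC livers. Nqo1 was most like Ugdh, Gm14150 and Ltv1, at 0.265, 0.319 and 0.322 against its own 0.725. Keap1 was most like Cacfd1, Vps26b and Ecpas, at 0.0762, 0.0942 and 0.0958 against its own 0.319. Cacfd1 went from 25.6 to 17.9 CPM as means of the FBXL5ΔDC groups, and from 26.2 to 28.2 CPM in control livers. Nfe2l2 was most like Pak2, Smarca5 and Map2k4, at 0.0960, 0.0975 and 0.101 against its own 0.335. For Me1 the nearest were Psmb6, Nfyb and Smdt1, at 0.0910, 0.0992 and 0.102 against its own 0.189. These distances describe the 12 libraries, which share the same 4 groups, and carry no test.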

How the data were processed

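Whole-liver RNA was sequenced in 12 libraries, 3 for each of 4 groups taken from the titles. The submitters' processing notes name Trim Galore 0.6.6 for trimming, HISAT2 2.2.1 for alignment and the build mm10. The counting program, its annotation and its strand setting are not given in the sources used here. The deposited values are estimated counts per gene, all whole numbers but piled up at multiples of 4 when low, so they were tested as they stood although raw counts had been assumed. The members and lists were chosen with earlier results of these data known. Genes were filtered with filterByExpr, scaled with TMM factors (0.855 to 1.14) and fitted in edgeR 4.0.16 under R 4.3.3 (robust quasi-likelihood, 1 coefficient for each of 4 groups, 8 residual degrees of freedom). Calls are at an adjusted p below 0.05 (Benjamini-Hochberg over 17585 genes). The script was tested on simulated data. Log2 CPM used a prior count of 2. No pair of libraries was a copy (lowest chi-square per degree of freedom 23.9). The members were always named, Fbxl5 and Itgax to check the labels, and up to 3 called genes a list and comparison by the smallest adjusted p. For 6 members the 3 most similar genes were named. Gene positions come from GENCODE vM21 (GRCm38), which held 98.1% of the identifiers with their version. Alternatives were 3 other scalings, no filter, DESeq2 1.42.0, fits of 2 groups, dispersions not robust, a replicate block and leaving out each library.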

Additional observations from a re-analysis of the deposited data

How the results depend on the processing

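Of 990 combinations of a gene, a comparison and an alternative setting, 883 kept their direction and their side of the threshold, 31 lost a call, 14 gained one and 62 changed sign. None of those 62 was called in either fit. Srxn1, Txnrd1 and Pgd kept their rise in both genotypes, and Keap1 its fall in FBXL5ΔDC livers, under all 20 alternatives. With only the 2 groups compared in the fit, 3 members rose in control livers and 0 were lower in FBXL5ΔDC livers at 6 h, whereas 7 rose in FBXL5ΔDC livers, with Nfe2l2 newly called (edgeR adjusted p = 0.00346). Over all genes these fits called 235 higher, 6 lower and 3016 higher, in the same order. With library totals only, which moved the median of all genes at 6 h to −0.23, 3 members were lower in FBXL5ΔDC livers at 6 h. These were Keap1, Prdx1 (edgeR adjusted p = 0.0156) and Pgd (edgeR adjusted p = 0.0294). Over all genes, 1774 were lower with that setting. DESeq2 called 1 member lower in the interaction, where it called 490 of all genes lower. Leaving out 1 library at a time gave 0 to 2 members higher in FBXL5ΔDC livers at 6 h, and 0 to 1 higher and 0 to 1 lower in the interaction. The higher values came without control replicate 3 at 6 h. In that fit 10.1% of all genes were higher at 6 h, and 5.97% were higher and 7.74% lower in the interaction. The cause of these changes between settings was not tested.

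Me1 changed sign in control livers with RLE scaling (−0.00522), upper quartile scaling (−0.0694) and DESeq2 (−0.0094), and in FBXL5ΔDC livers with upper quartile scaling (−0.0094) and library totals (−0.0542). Without 1 library its change ran from −0.10 to 0.16 in control and from −0.12 to 0.15 in FBXL5ΔDC livers. The genotype difference at 6 h, without 1 library, ran from −0.0464 to 0.65 for Srxn1, −0.21 to 0.67 for Txnrd1, −0.43 to 0.76 for G6pdx, −0.21 to 0.0911 for Me1 and −0.27 to 0.24 for Nfe2l2. With library totals Txnrd1 was at −0.0666. Nfe2l2 was called higher after acetaminophen in control livers with library totals, with DESeq2, and without treated control replicate 1 or 2. Prdx1 was called higher in FBXL5ΔDC livers without treated replicate 3 of that genotype (edgeR adjusted p = 0.032).

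With a replicate block, 6 members rose in control and 6 in FBXL5ΔDC livers, where 854 and 2436 of all genes rose. G6pdx lost its call in control livers with that block, and its genotype difference at 6 h was 0.0121. The labels do not say that the numbers pair the livers, and the values showed no pairing, which does not exclude it. Deviations of libraries with the same number correlated at −0.06 to 0.04, and 1 of 12 libraries was most like its own number. Over all genes, the calls higher and lower with 2 groups in the fit were 235 and 167 in control livers after acetaminophen, 3016 and 2987 in FBXL5ΔDC livers, and 0 and 6 between genotypes at 6 h. DESeq2 gave 1721 and 1222 in control livers and 753 and 1500 between genotypes at 6 h. Without control replicate 3, 1873 and 2376 genes were called between genotypes at 6 h and 1103 and 1430 in the interaction, against 6 and 45 with all libraries and 228 and 490 with DESeq2. The SE of the change in control livers was 0.50 for Osgin1 and 0.45 for the scarce G6pdx, and how much of it depth sets was not tested.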
